A study of Mus musculus with 7 samples.

Results

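The 10 genes described here encode integrin chains other than the pair that forms the receptor for the bone growth factor osteolectin. They are the alpha chains Itga1, Itga4, Itga5, Itga6, Itga8, Itga9 and Itgav and the beta chains Itgb3, Itgb5 and Itgb8. They were chosen by symbol from the 53801 gene IDs of the count tables, and all 10 were found. RNA was measured in 4 FAPi libraries and 3 DPBS libraries of bone marrow mesenchymal stromal cells. FAPi mice were given an inhibitor of fibroblast activation protein, a serine protease of the cell surface, at 500 µg/kg, and DPBS mice received DPBS, a phosphate-buffered saline, alone. Both groups were male C57BL/6 mice, 8 weeks old at the start, injected into the peritoneum every day for 35 days with 100 µl. Which inhibitor was used is not stated in the labels. From each sample, 7000 live cells from limb bones were sorted as Pdgfra+, CD45-, Ter119- and Tie2-, and libraries were made by a modified Smart-seq2 protocol.

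An integrin is a receptor of 1 alpha and 1 beta chain that spans the cell membrane and ties the extracellular matrix to the actin cytoskeleton. The pairing sets the ligand. Alpha chains that join beta-1 include receptors for collagen, laminin, fibronectin and tenascin, whereas the alpha-v chain joins several beta chains and reads the RGD tripeptide of vitronectin, osteopontin and latent TGF-beta. In marrow stroma these receptors hold cells in the matrix and on bone, while blood cells use integrins of their own to bind stromal ligands such as VCAM-1.

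The library totals lay between 7492570 and 10569690 counts. Levels are given below as CPM (counts scaled to the library total) corrected with TMM factors for differences in library composition. A count of 3, taken as the floor of detection, corresponds to 0.284 to 0.4 CPM before the TMM correction and covers counting error only. The sorted identity could be read from the RNA: the summed level of 8 stromal markers, Pdgfra, Lepr and Cxcl12 among them, was 21353 to 28182 CPM in FAPi and 22549 to 26042 CPM in DPBS libraries. Summed markers of blood cells that the sort should remove were also present. Neutrophil markers summed to 180.4 to 604 CPM in FAPi and 598 to 2592 CPM in DPBS libraries, and erythroid markers to 1617 to 3270 CPM in FAPi and 1864 to 15795 CPM in DPBS libraries, with DPBS replicate 2 the highest in both. No gene out of 12930 tested had an adjusted p under 0.05 in edgeR's quasi-likelihood test with Benjamini-Hochberg adjustment (0%), while 1053 genes (8.14%) had an unadjusted p under 0.05 and DESeq2 called 135 of 12267 genes with an adjusted p (1.10%). In bulk RNA of this kind, fewer cells of a type and less RNA per cell cannot be told apart.

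Of the 10 chains, 9 had enough counts to be tested and none passed the adjusted threshold in either direction. Itgb8 was too low, and Itga4 entered the test only through its FAPi libraries. DESeq2 gave Itga4 no adjusted p and called none of the others. The groups did not overlap for 2 of the 9, against 7.34% of all tested genes. Itga1 was lower in every FAPi library than in any DPBS library, a pattern that 3.95% of all tested genes had. Itgav was higher in every FAPi library than in any DPBS library, as were 3.39% of all tested genes. Itga1 was also the only chain with an unadjusted edgeR p under 0.05, against 3.69% of all genes in that direction, and no chain had one in the higher direction, against 4.45%.

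**Figure D1:**
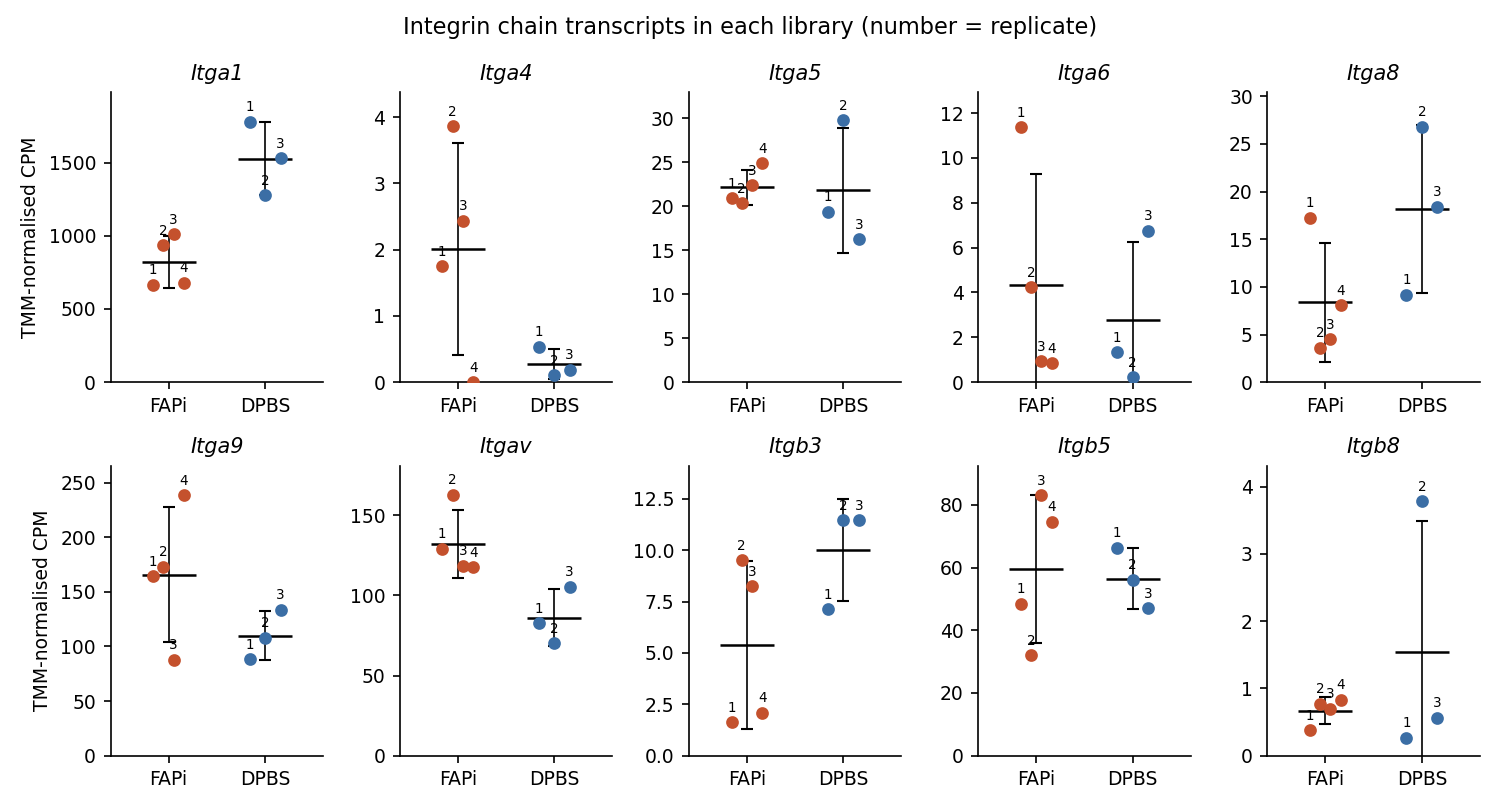
Level of each of the 10 integrin chains in TMM-normalised CPM, with its own linear axis from 0, for 4 FAPi and 3 DPBS libraries numbered by replicate. Lines are group means and bars are SD, drawn no lower than 0. FAPi points for Itga1 (665 to 1009 CPM) lie below all DPBS points (1276 to 1778 CPM), those for Itgav (117 to 163 CPM) lie above all DPBS points (70.4 to 105 CPM), and the other chains overlap.

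The 250 bases upstream of the annotated starts of Itga1 and Itgav are shown because these are the chains whose groups did not overlap. Both were taken from RefSeq (GRCm38.p6), run 5′ to 3′ on the gene's strand, and carry CG pairs in capitals. The Itga1 stretch is chr13:115101965-115102214 on the minus strand and the Itgav stretch is chr2:83724147-83724396 on the plus strand.
Itga1: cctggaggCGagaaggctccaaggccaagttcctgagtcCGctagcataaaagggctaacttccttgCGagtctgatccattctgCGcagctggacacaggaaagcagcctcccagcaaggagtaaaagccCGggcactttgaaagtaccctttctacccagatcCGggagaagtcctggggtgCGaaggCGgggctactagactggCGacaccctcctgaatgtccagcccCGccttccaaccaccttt
Itgav: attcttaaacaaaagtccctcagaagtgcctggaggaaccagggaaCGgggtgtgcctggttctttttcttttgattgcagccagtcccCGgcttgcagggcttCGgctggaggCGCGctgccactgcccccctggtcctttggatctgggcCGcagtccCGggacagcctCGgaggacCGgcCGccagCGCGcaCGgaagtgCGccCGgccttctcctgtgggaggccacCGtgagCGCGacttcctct
The Itga1 stretch holds 10 CG pairs and is 57.6% G or C. The Itgav stretch holds 18 CG pairs and is 64.4% G or C, and the median over 32851 promoter stretches of the same length is 6 CG pairs. Of the 10 chains, 8 matched a promoter in that table. Each was searched on both strands for 5 motifs: the GC box GGGCGG, held by 32.7% of all promoter stretches, the AP-1 motif TGANTCA (6.75%), the Runx motif TGTGGT (14%), the ETS motif CCGGAA (12%) and the TATA motif TATAAA (12.4%). None of these letters is in the Itga1 or Itgav stretch, while Itga4, Itga5 and Itgb5 hold a GC box and Itga4 holds the Runx motif. The RefSeq starts of Itga9 (118711692) and Itgb8 (119238276) lie inside the gene coordinates given below, so their stretches are not upstream of those coordinates.

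Itga1 encodes the alpha-1 chain, which joins beta-1 in a receptor for collagens and laminins. The gene (ENSMUSG00000042284.10) lies on chromosome 13 from 114953096 to 115101964 on the minus strand (mm10). Its level was 665, 935, 1009 and 678 CPM in FAPi libraries and 1778, 1276 and 1529 CPM in DPBS libraries. The highest FAPi library was thus below the lowest DPBS library. The means were 822 ± 176 CPM in FAPi (SD, n = 4) and 1527 ± 251 CPM in DPBS mice (SD, n = 3), a ratio of 0.538. The log2 difference was -0.89 ± 0.24 (SE), with a 95% interval of -1.41 to -0.38. In edgeR it ranked 80 of 12930 genes by p without reaching the threshold (adjusted p = 0.469), and DESeq2 gave -0.86 with an adjusted p of 0.289. Neutrophil and erythroid markers were higher in DPBS replicates 1 and 2 than in any FAPi library. In DPBS replicate 3 these markers, at 598 and 1864 CPM, lay within the FAPi range, and Itga1 was at 1529 CPM there. With the mean of the blood cell markers as a covariate the difference was -0.95 (edgeR adjusted p = 0.707). All 7 neutrophil and all 8 erythroid markers had lower estimates in FAPi, so this covariate is not independent of the group. The part of blood cells in the Itga1 difference was not tested. A predicted gene, Gm49395, shares 685 exon bases with Itga1 on the same strand, and Pelo lies inside an Itga1 intron. Both had few counts, at most 7 in any library, and the effect of the shared bases on the Itga1 count was not tested.

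The other laminin receptor chain of the set, Itga6, which joins beta-1 or beta-4, was low and uneven. It lies on chromosome 2 from 71745616 to 71858416. Its level was 11.4, 4.25, 0.928 and 0.834 CPM in FAPi libraries and 1.34, 0.21 and 6.76 CPM in DPBS libraries. FAPi replicate 1 and DPBS replicate 3 were the high ones, and the groups overlapped. The log2 difference was 0.65 ± 1.29 (SE; edgeR adjusted p = 0.943), and it was -0.46 without FAPi replicate 1 and 2.46 without DPBS replicate 3. Itga6 is also known from endothelial cells and platelets, so their markers were set beside it. The 7 endothelial markers summed to 357 CPM in FAPi replicate 1, but 339 CPM of this was Kdr. Without Kdr the sum was 18.5, 33.7, 16.7 and 25.99 CPM in FAPi libraries and 21.8, 25.03 and 47.1 CPM in DPBS libraries. FAPi replicate 1 was thus among the lowest and DPBS replicate 3 was the highest. The single markers differed in FAPi replicate 1, with Cdh5 at 1.87 CPM and Tek at 0 but Pecam1 at 12.1 CPM. Pecam1 was higher there than in the other FAPi libraries, and its highest level of all was 18.02 CPM in DPBS replicate 3. Megakaryocyte and platelet markers summed to 88.8 to 186 CPM in FAPi libraries, against 521 CPM in DPBS replicate 3 and 116 and 198 CPM in the other DPBS libraries. The part of endothelial or platelet-lineage cells in the Itga6 level was not tested.

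Itgav encodes the alpha-v chain, the shared partner of beta-3, beta-5 and beta-8. It lies on chromosome 2 from 83724397 to 83806916 on the plus strand. Its level was 129, 163, 118 and 117 CPM in FAPi libraries and 82.8, 70.4 and 105 CPM in DPBS libraries. Every FAPi library lay above every DPBS library, but the nearest values were 117 and 105 CPM. The means were 132 ± 21.3 CPM in FAPi (SD, n = 4) and 86.2 ± 17.8 CPM in DPBS mice (SD, n = 3), a ratio of 1.53. On the log2 scale this was 0.61 ± 0.28 (SE), with a 95% interval of -0.01 to 1.24 (edgeR adjusted p = 0.616). With the blood cell markers as a covariate it was 0.45 (edgeR adjusted p = 0.887). A transcript on the opposite strand, Gm13684, overlaps 634 of its exon bases, and no label states whether reads were counted by strand.

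Itga5 and Itga8, the other chains that read RGD, both join beta-1. Itga5 (chromosome 15, 103344286 to 103366763) forms the classical fibronectin receptor, and its level was 20.9, 20.3, 22.4 and 24.9 CPM in FAPi libraries and 19.4, 29.8 and 16.2 CPM in DPBS libraries. All FAPi libraries lay inside the DPBS range. The log2 difference was 0.02 ± 0.42 (SE), with a 95% interval of -0.91 to 0.95 (edgeR adjusted p = 0.996). Itga8 (chromosome 2, 12106632 to 12301922) encodes the receptor chain for nephronectin, and its level was 17.2, 3.6, 4.52 and 8.06 CPM in FAPi libraries and 9.19, 26.8 and 18.4 CPM in DPBS libraries. Only FAPi replicate 1 entered the DPBS range. The log2 difference was -1.12 ± 0.68 (SE; edgeR adjusted p = 0.713), and it was -0.73 without DPBS replicate 2 and -1.75 without FAPi replicate 1. The antisense gene E030013I19Rik overlaps 372 exon bases of Itga8.

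Itga4 and Itga9 are related alpha chains, the first a receptor for VCAM-1 and fibronectin that is abundant on blood cells, the second a receptor for tenascin-C and osteopontin. Itga9 (chromosome 9, 118606690 to 118901003) was at 164, 173, 87.8 and 238 CPM in FAPi libraries and 88.2, 108 and 134 CPM in DPBS libraries. FAPi replicate 3 lay just under the lowest DPBS library and the other FAPi libraries were above all DPBS libraries. This gave a log2 difference of 0.59 ± 0.35 (SE; edgeR adjusted p = 0.704). Itga4 (chromosome 2, 79255426 to 79333123) was near the floor. It had 14, 30, 21 and 0 counts in FAPi libraries and 6, 1 and 2 counts in DPBS libraries. In CPM this was 1.75, 3.86, 2.44 and 0 in FAPi and 0.535, 0.105 and 0.188 in DPBS libraries, so the highest DPBS library lay above FAPi replicate 4. The log2 difference of 2.79 ± 1.39 (SE; edgeR adjusted p = 0.647) rests on these few counts. Over the 14 of 18 alternatives that kept Itga4, it ranged from 0.96 to 3.64. The lowest was in limma on deposited CPM with a pseudocount of 1, the highest without DPBS replicate 1. Itga4 dropped out of the test when FAPi replicate 1, 2 or 3 was left out. Common leukocyte markers, Ptprc among them, summed to 12.1 to 23.2 CPM in FAPi and 21.9 to 74.7 CPM in DPBS libraries. Their part in the Itga4 level was not tested.

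Among the beta chains only Itgb5 was well measured. Beta-5 joins alpha-v in a vitronectin receptor, and Itgb5 (chromosome 16, 33829665 to 33949338) was at 48.5, 32.05, 83.2 and 74.6 CPM in FAPi libraries and 66.4, 56.2 and 47.02 CPM in DPBS libraries. FAPi libraries lay on both sides of the DPBS range. The means were 59.6 ± 23.6 CPM in FAPi (SD, n = 4) and 56.5 ± 9.68 CPM in DPBS mice (SD, n = 3), and the log2 difference was 0.08 ± 0.39 (SE; edgeR adjusted p = 0.986).

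Itgb3 (chromosome 11, 104608000 to 104670476), the beta chain of the osteoclast vitronectin receptor and the platelet fibrinogen receptor, was at 1.62, 9.52, 8.24 and 2.08 CPM in FAPi libraries and 7.14, 11.5 and 11.4 CPM in DPBS libraries. FAPi replicates 1 and 4 lay below all DPBS libraries, and replicates 2 and 3 lay within the DPBS range. The difference on the log2 scale was -0.90 ± 0.80 (SE; edgeR adjusted p = 0.819). Osteoclast markers summed to 60.0 to 133 CPM in FAPi and 121 to 130.2 CPM in DPBS libraries. Most of it was Ctsk, at a mean of 72.1 CPM in FAPi and 101 CPM in DPBS mice. Acp5 was at 3.25 to 35.5 CPM and Mmp9 at 3.2 to 14.4 CPM over all libraries. Atp6v0d2 was at most 1.79 CPM, and Ocstamp, Dcstamp and Calcr were at 0 in all libraries. Megakaryocyte and platelet markers, given above, were highest in DPBS replicate 3. The part of osteoclasts or platelet-lineage cells in the Itgb3 level was not tested.

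Itgb8 (chromosome 12, 119158022 to 119238802), whose product joins alpha-v to release active TGF-beta, had 3, 6, 6 and 6 counts in FAPi libraries and 3, 36 and 6 counts in DPBS libraries. DPBS replicate 2 alone stood above the rest. Without the filter on low counts its log2 difference was -1.18 ± 1.49 (SE; edgeR adjusted p = 0.773).

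**Figure D2:**
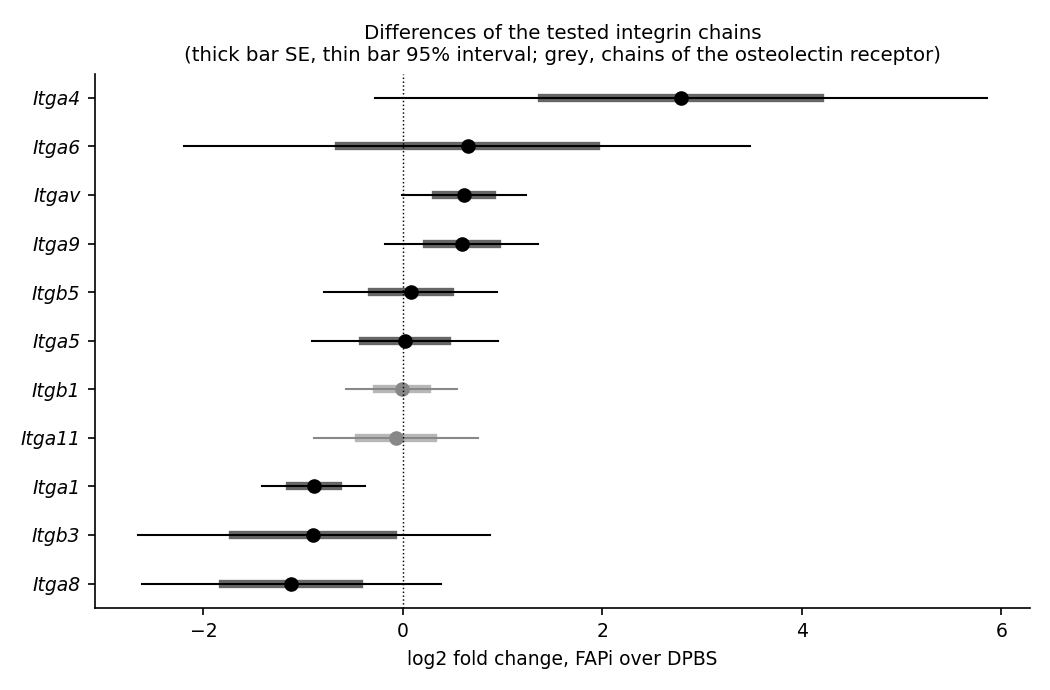
Log2 fold change of FAPi over DPBS from edgeR for the 9 tested integrin chains (black) and for Itgb1 and Itga11 (grey), with SE as thick bars and 95% intervals as thin bars. The interval of Itga1 (-1.41 to -0.38) is the only one that leaves out 0, before adjustment over all genes.

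Because long transcripts collect more reads, levels were set against each other per kilobase of annotated exon. Itga1 was highest, at 44.2 ± 9.46 CPM per kb in FAPi (SD, n = 4) and 82.1 ± 13.5 CPM per kb in DPBS mice (SD, n = 3). Its lowest library of all 7, at 35.8 CPM per kb, was above the highest library of the next chain, Itga9, at 31.0 CPM per kb. Itga9 averaged 21.6 ± 8.02 CPM per kb in FAPi and 14.3 ± 2.97 CPM per kb in DPBS mice. Itgb5 followed with 16.8 ± 6.63 CPM per kb in FAPi and 15.9 ± 2.72 CPM per kb in DPBS mice, and then Itgav with 12.3 ± 1.98 CPM per kb in FAPi and 8.02 ± 1.66 CPM per kb in DPBS mice. These neighbours in the order, from Itga9 to Itgav, overlapped. Itga5 came next, at 4.48 ± 0.413 CPM per kb in FAPi and 4.42 ± 1.44 CPM per kb in DPBS mice, and all of its libraries were below those of Itgav. Itga8, Itgb3, Itga6, Itgb8 and Itga4 overlapped their neighbours, with means over all 7 libraries of 1.7, 1.25, 0.407, 0.0942 and 0.0907 CPM per kb. Of 9 neighbouring pairs, 2 were thus apart in every library. Measured the same way, Itgb1, the common partner of the beta-1 chains, was at 64.6 ± 12.2 CPM per kb in FAPi and 65.2 ± 10.4 CPM per kb in DPBS mice.

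**Figure D3:**
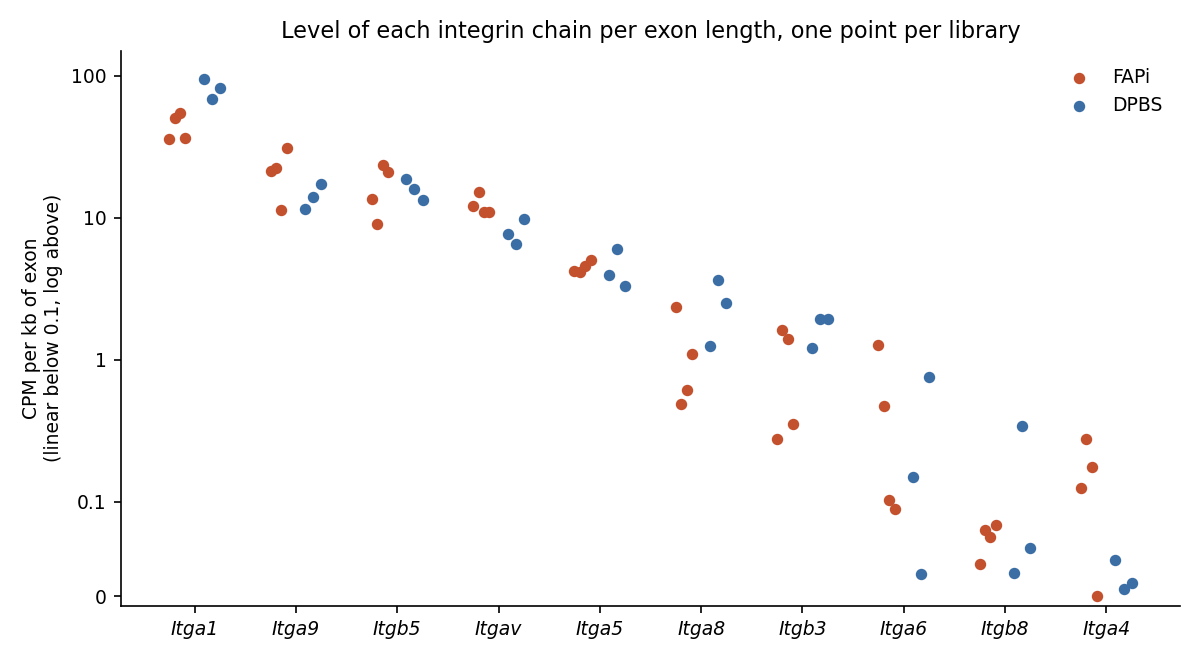
Level of each integrin chain in CPM per kilobase of exon, 1 point per library, in order of the mean over all 7 libraries. The axis is linear below 0.1 and logarithmic above. Itga1 lies above all other chains in every library, and Itga5 lies below Itgav in every library.

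Of the alpha-chain shares, that of Itga1 had the group means furthest apart, at 52.4% in FAPi and 73.3% in DPBS libraries. Of the summed level per kb of the 7 alpha chains, Itga1 took 46.4%, 53.9%, 66.1% and 43.1% in FAPi libraries and 79.6%, 69.4% and 70.9% in DPBS libraries. Itgav took 12.9% to 16.3% in FAPi and 6.42% to 8.47% in DPBS libraries, so both shares kept the groups apart. Itga9 took 13.9% to 36.6% in FAPi and 9.55% to 15.0% in DPBS libraries, which overlapped. The shares sum to a whole, so a lower share of 1 chain raises the others. In CPM, the 9 chains other than Itga1 summed to 329 to 467 in FAPi and 275 to 339.8 in DPBS libraries, with an overlap. These shares and the ratios that follow were chosen after the levels were seen and carry no test. They restate the levels given above, so groups kept apart in them are not a further result.

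**Figure D4:**
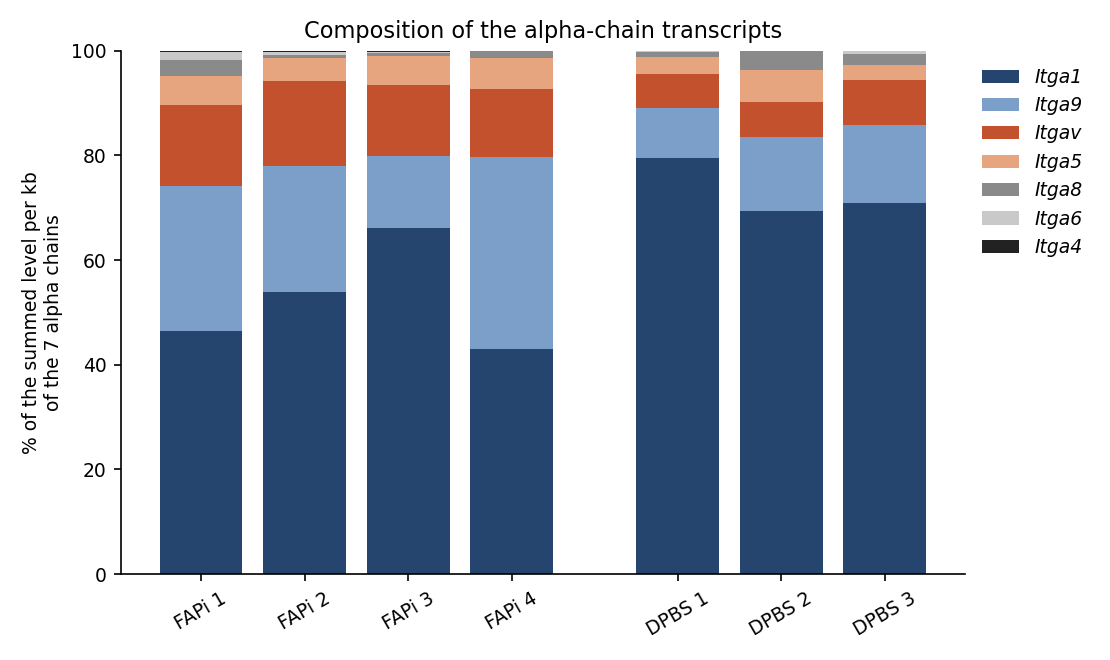
Share of each alpha chain, in percent of the summed level per kilobase of exon of the 7 alpha chains, with 1 stacked bar per library. Itga1 takes 43.1% to 66.1% in FAPi and 69.4% to 79.6% in DPBS libraries.

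The chains of the osteolectin receptor were compared in the same libraries. Itgb1 had 280.1, 271, 311 and 193 CPM in FAPi libraries and 315, 237 and 246 CPM in DPBS libraries (log2 difference -0.01 ± 0.25 SE, edgeR adjusted p = 0.996). Itga11, a collagen receptor chain like Itga1, had 43.0, 79.5, 64.6 and 40.9 CPM in FAPi libraries and 44.9, 58.5 and 76.7 CPM in DPBS libraries (log2 difference -0.07 ± 0.37 SE, edgeR adjusted p = 0.985). Per kb, Itga1 stood to Itgb1 at 0.521, 0.759, 0.712 and 0.769 in FAPi and at 1.24, 1.18 and 1.36 in DPBS libraries. The size of such a ratio depends on the exon length taken for each gene, which is the same in all libraries. The ratio of Itga1 to Itga11 was 3.24 to 4.58 in FAPi and 5.5 to 10.9 in DPBS libraries, and that of Itga1 to Itgav was 2.97 to 4.92 in FAPi and 8.37 to 12.4 in DPBS libraries. The ratio of Itgav to Itgb1 overlapped, at 0.145 to 0.231 in FAPi and 0.0999 to 0.163 in DPBS libraries.

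Of 27 listed ligand genes, 25 were tested and none passed the edgeR threshold. The estimate was lower in FAPi for 6 and higher for 19, with a median log2 difference of 0.15, beside 6392 lower (49.4%) and 6538 higher and a median of 0.01 over all tested genes. Npnt was the 1 ligand gene that DESeq2 called. The most abundant of the list did not pass the test. Ibsp, the bone sialoprotein, averaged 13644 CPM in FAPi and 14333 CPM in DPBS mice. Spp1, which encodes osteopontin, averaged 3315 ± 929 CPM in FAPi and 3019 ± 579 CPM in DPBS mice, Col1a1, a chain of the collagen of bone, averaged 2622 ± 1769 CPM in FAPi and 2492 ± 1931 CPM in DPBS mice, and Tnc, which encodes tenascin-C, averaged 1483 ± 229.7 CPM in FAPi and 1337 ± 136 CPM in DPBS mice (SD, n = 4 and 3). The log2 differences were -0.07 ± 0.23 for Ibsp, 0.14 ± 0.26 for Spp1, 0.07 ± 0.56 for Col1a1 and 0.15 ± 0.21 for Tnc (SE).

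Npnt, which encodes nephronectin, the ligand of the receptor that holds the Itga8 chain, had the smallest p of the ligands. It was at 46.9, 8.37, 9.51 and 24.3 CPM in FAPi libraries and 5.17, 1.68 and 2.06 CPM in DPBS libraries. Every FAPi library lay above every DPBS library. On the log2 scale the difference was 2.90 ± 0.81 (SE), and it was 2.23 without FAPi replicate 1 and 3.55 without DPBS replicate 1. The adjusted p was 0.482 with edgeR and 0.0119 with DESeq2, and it ranged from 0.0119 to 0.784 over 18 alternatives. DESeq2 called 0.685% of all genes with an adjusted p as higher. Lama4, a laminin chain of vessel and stromal matrix, was at 101, 209, 259 and 151 CPM in FAPi libraries and 103, 73.7 and 62.03 CPM in DPBS libraries, and FAPi replicate 1 lay just under the highest DPBS library. Its log2 difference was 1.18 ± 0.36 (SE; edgeR adjusted p = 0.489). Lamc1, the laminin gamma-1 chain, was at 101, 106, 102 and 84.9 CPM in FAPi libraries and 117, 141 and 198 CPM in DPBS libraries. All FAPi libraries were below the DPBS libraries, with a log2 difference of -0.63 ± 0.28 (SE; edgeR adjusted p = 0.593). Of the 25 tested ligand genes, Lamc1 was the 1 with all FAPi libraries lower, against 3.95% of all tested genes. The 3 with all FAPi libraries higher were Npnt and the laminin chains Lama5 and Lamb2, against 3.39% of all tested genes.

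Inside the cell, integrins are switched on by talin and kindlin and tied to actin by adaptors such as vinculin and tensin. Of 42 adaptor and partner genes, 37 were tested and none passed the edgeR threshold. The estimate was lower in FAPi for 21 and higher for 16, with a median log2 difference of -0.12. The most abundant, with log2 differences of -0.03 ± 0.22, 0.11 ± 0.23 and 0.15 ± 0.24 (SE), were the tetraspanin Cd81, the integrin-associated Cd47 and the tensin Tns3. Tns2, another tensin, had the smallest p. It was at 216, 79.9, 224 and 257 CPM in FAPi libraries and 86.1, 104 and 114 CPM in DPBS libraries, with FAPi replicate 2 below all DPBS libraries (log2 difference 0.94 ± 0.38 SE, edgeR adjusted p = 0.565). Vcl, which encodes vinculin, had a log2 difference of -1.47 ± 0.79 (SE; edgeR adjusted p = 0.675), and its groups overlapped. Over 18 alternatives the Vcl difference ranged from -2.55, with the replicate number as a block, to -1.15. It was -2.37 without FAPi replicate 4. Cd151, a tetraspanin that binds laminin receptors, had -0.75 ± 0.40 (SE). Fermt3, the kindlin of blood cells, was at 102 CPM in FAPi replicate 1, and its log2 difference was 1.14 with that library and -0.01 without it. Ilk was listed at 0 in every library, and whether this reflects its expression or the way reads were counted was not tested.

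Of 16 other integrin chains, 9 were tested and none passed the edgeR threshold, with estimates lower in FAPi for 7 and higher for 2 and a median log2 difference of -0.38. Itgam, a chain of myeloid cells, had a log2 difference of -2.24 that rested on DPBS replicate 1 at 64.3 CPM, and it was 0.44 without that library. Of 9 genes for latent TGF-beta, the cargo of alpha-v receptors, 8 were tested, with estimates lower in FAPi for 5 and higher for 3 and a median of -0.05. None passed the edgeR threshold. Ltbp1, a latent TGF-beta binding protein, was at 671, 588, 574 and 759 CPM in FAPi libraries and 422, 484 and 526 CPM in DPBS libraries. FAPi libraries lay above all DPBS libraries, as for 3.39% of all tested genes, with a log2 difference of 0.44 ± 0.22 (SE; edgeR adjusted p = 0.645). Ltbp4, from the same family, had a log2 difference of -1.56 ± 0.73 (SE; edgeR adjusted p = 0.625).

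**Figure D5:**
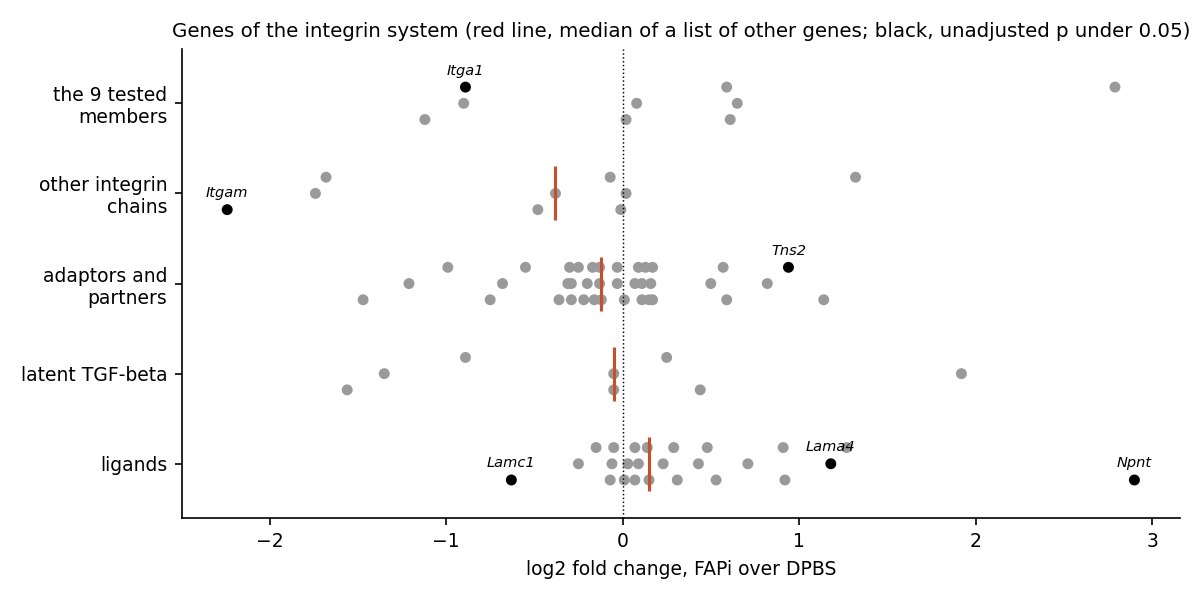
Log2 fold change of FAPi over DPBS for each tested gene of the integrin system, 1 point per gene, spread vertically within a list. Red lines are the medians of the other genes' lists, from -0.38 for the other integrin chains to 0.15 for the ligands, and black points are genes with an unadjusted edgeR p under 0.05, none of which passed adjustment.

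The genes most like the leading alpha and beta chain across the 7 libraries were found among 10464 genes with a mean of at least 5 CPM, by Pearson's r of log2 CPM. This describes the libraries and carries no p, and any difference between the groups enters each r. For Itga1 the closest were Ccdc50, Bud23 and Sertad2, with r of 0.990, 0.981 and 0.978. For Itgb5 they were Dcaf11, Stx8 and Itpa, with r of 0.965, 0.953 and 0.952.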

How the data were processed

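Per the labels, RNA of sorted stromal cells from 4 FAPi and 3 DPBS mice was sequenced in paired reads of 150 bases. The authors deposited raw read counts per gene and CPM values. Per the submitters' processing notes, STAR, HTSeq and mm10 were used, with no version stated, and no label names the annotation. The deposited CPM equal the count over the library total to within 4.55e-05 CPM; 6 of 7 CPM tables repeat 2319 to 2341 lines, and the first per gene was used. Of 53801 IDs, 53706 matched GENCODE M21.

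Counts were tested with edgeR 4.0.16 (quasi-likelihood, TMM, filterByExpr with a minimum count of 10, FAPi over DPBS, Benjamini-Hochberg threshold 0.05) in R 4.3.3, after a check on simulated data. In that check, with 4 against 3 libraries, the test recovered 2% of 2-fold and 22% of 4-fold changes. It recovered 50% of 8-fold and 88% of 16-fold changes, with 50 genes changed per fold. A gene short of the threshold was thus not shown to be unchanged. DESeq2 1.42.0, limma 3.58.1 (deposited CPM with pseudocounts 1 and 0.1), other scalings and filters, a replicate block, a blood marker covariate and leaving out each library were alternatives. Levels per kb used the union of annotated exons. Same-numbered mice did not deviate together (correlations -0.01, -0.02 and -0.05). No pairing by number was thus seen, though these correlations cannot show that none exists.

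The members and gene lists were chosen with earlier results of these data known. All 10 members are named. From each of 4 lists of other genes, those with the highest mean CPM or the smallest p (under 0.3) could be named, and a few others were named after their values were seen.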

Additional observations from a re-analysis of the deposited data

How the results depend on the processing

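No member passed under any of the alternatives, and of 157 alternative values of the members' differences 141 kept their direction while 16, in Itga5, Itga6 and Itgb5, did not. Itga1 ranged from -1.09 to -0.78 (adjusted p 0.244 to 0.842) and Itgav from 0.43 to 0.79 (0.54 to 0.928). Itga5 was -0.11 in limma on deposited CPM with either pseudocount, -0.01 with upper quartile scaling and -0.14 with total counts only, and -0.15 to 0.31 when 1 library was left out. Itgb5 was -0.03 with limma voom, -0.18 in limma on deposited CPM with either pseudocount, -0.09 with total counts only and -0.15 with the replicate block, and -0.13 to 0.27 when 1 library was left out. Leaving out 1 library gave -0.46 to 2.46 for Itga6, -2.74 to 0.44 for Itgam and -0.01 to 1.47 for Fermt3. The replicate block left 0 genes past the threshold and put Itga1 at -0.82 and Itgav at 0.67, but no pairing of the mice by number was seen. Over all genes, counts past the threshold higher in FAPi were 84 with DESeq2, 1 with limma voom, 4 in limma on deposited CPM with either pseudocount, 5 with no filter on low counts, 1 at an adjusted p under 0.1 and 0 to 2 when 1 library was left out (2 without DPBS replicate 3). Those lower in FAPi were 51 with DESeq2, 2 in limma on deposited CPM with either pseudocount, 1 with no filter and 0 to 1 when 1 library was left out. Of the listed genes, DESeq2 called 1 higher, Npnt. The causes were not tested. Total counts only moved the median of all genes to -0.16 and deposited CPM to -0.17 and -0.18, so log2 differences under those settings are read against that shift. Length of the longest transcript put Itga1 at 102.5 and Itgav at 15.9 CPM per kb, and swapped Itga4 with Itgb8 in the order. Itga4, Itga6 and Itgb8 had 0 to 91 counts per library, so both counting error and the spread between libraries limit these chains.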
